A study of Homo sapiens with 40 samples.

Results

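The regions described are the introns longer than 50000 nt in a long-read catalogue of human transcript models. An intron was taken as the gap between neighbouring exons of a model, and introns with the same chromosome, strand, start and end were counted once. By this rule 1249 of 73516 distinct introns were long (1.7%), and they lay in 781 of 9460 genes (8.26%) and in 1307 of 19972 models (6.54%). The members were chosen by intron length as deposited, so lengths are given as description and carry no test. The study used embryonic stem cells (ESC) of the established human line H9, labelled as control, and neural progenitor cells (NPC) made from it by dual-SMAD inhibition, which blocks BMP and TGF-beta signalling. Polyadenylated RNA of both cell types was taken from the cytosol and from messages bound to a single ribosome (monosome), to 2 to 4 (light polyribosome) or to at least 5 (heavy polyribosome), each with 2 long-read and 3 short-read libraries, 40 libraries in all. The catalogue gives positions of exons and coding regions and no value for any library, so ESC, NPC and the fractions are not compared and the depth is unknown. Both cell types come from 1 cell line, and all 13 marker genes checked, from POU5F1 and NANOG to PAX6, OTX2 and DCX, had at least 1 model.

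RNA polymerase II copies an intron in full before the spliceosome can join its ends, so a long intron makes a gene slow to transcribe while adding nothing to the length of the mRNA. Long introns are well known in genes of the nervous system, and first introns are known as places that hold regulatory DNA. An exon that lies inside the intron may be included or skipped, and such an exon is called a cassette exon. Long introns can also carry microRNA (miRNA) hairpins, which are cut out of the primary transcript and matured into short RNAs that pair with target messages mainly through the seed, bases 2 to 8.

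Of the 1562 miRNA hairpins in the RefSeq table (GRCh38.p14), 44 lay on the same strand inside a long intron of the catalogue, in 43 host genes. These were 44 of the 321 hairpins that lay in any intron (13.7%). A hairpin was present in 46 of the long introns (3.68%), against 0.502% of all introns. On the opposite strand 10 held one (0.801%, against 0.0544%). A longer stretch of sequence has more room for a hairpin. Long introns held 28.0% of the summed length of distinct introns, beside the 13.7% of intronic hairpins. That sum counts overlapping introns each in full, whereas a hairpin is counted once, so these shares are not like for like. The density per nt was not tested. The sequences below are RefSeq mature miRNAs from 9 of these hosts, written 5′ to 3′ with the seed in capitals. They were chosen after the values were seen, to show the longest host introns and the hosts best known for their gene.
hsa-miR-605-5p: uAAAUCCCauggugccuucuccu
hsa-miR-4503: uUUAAGCAggaaauagaauuua
hsa-miR-586: uAUGCAUUguauuuuuaggucc
hsa-miR-924: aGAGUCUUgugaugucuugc
hsa-miR-4295: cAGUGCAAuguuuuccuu
hsa-miR-339-5p: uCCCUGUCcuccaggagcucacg
hsa-miR-31-5p: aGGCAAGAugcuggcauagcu
hsa-miR-744-5p: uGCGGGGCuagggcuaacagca
hsa-miR-504-5p: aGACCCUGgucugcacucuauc
miR-605 lay in a 314392 nt intron of PRKG1, the cGMP-dependent protein kinase, 146242 nt behind the 5′ splice site. miR-4503 lay 219889 nt into the 297276 nt first intron of SLC25A21, a mitochondrial carrier. miR-586 lay in a 259194 nt intron of SUPT3H, and miR-924 in a 215713 nt intron of its non-coding host MIR924HG. These 4 host introns were each longer than 200000 nt, and none of the 4 seeds was found in another mature miRNA of the table. The other 5 hosts were VTI1A (miR-4295), a SNARE protein of vesicle fusion, C7orf50 (miR-339), MIR31HG (miR-31), MAP2K4 (miR-744), a kinase of the stress-activated pathway, and FGF13 (miR-504). Mature sequences were listed for most of the 44 hairpins but not for all, and the seeds of these 58 sequences all differed. The seed of miR-4295, AGUGCAA, was shared with 5 other mature miRNAs of the table, among them miR-301a-3p and miR-454-3p. The hairpin nearest to a 5′ splice site was MIR1258, which began 192 nt into an intron of ZNF385B, and the median distance was 46219 nt. By position, 21 hairpins lay in first introns, 18 in internal and 5 in last introns. Of all long introns, 37% were first, 46.2% internal and 11.4% last. Of the 44 hairpins, 40 lay in genes with a deposited coding region, which 90.3% of the genes with a long intron had. The catalogue shows that these introns were spliced out of a mature transcript and does not show that the miRNA was made.

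The median length of the 1249 long introns was 75512 nt, with quartiles of 59970 and 104378 nt, against a median of 1601 nt over all introns. There were 347 introns over 100000 nt and 47 over 200000 nt. Summed over distinct introns, the long ones held 114 of 408 Mb, or 28.0% of the summed length. Overlapping introns each count in full here, so the same bases can enter more than once. The introns just inside the threshold were in LINC01145 (50038 nt), TDRP (50052 nt) and PALS2 (50069 nt), and those just outside were in EMX2OS (49987 nt), SEMA3A (49911 nt) and BCAR3 (49910 nt).

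The longest intron, 397263 nt on chromosome 1 at 245929938 to 246327200, was the fifth of 11 introns of SMYD3, a lysine methyltransferase, and all 3 SMYD3 models held it. NAV3, a neuron navigator protein that binds microtubules, had an intron of 368052 nt on chromosome 12 at 77572267 to 77940318. FGF12 and FGF13 encode intracellular relatives of fibroblast growth factors that bind voltage-gated sodium channels, and their longest introns measured 366642 and 346379 nt. In both genes this was the intron after the first one. KAZN (361460 nt), which encodes kazrin, a protein linked to cell junctions, had its longest intron in first position. The same was true of LSAMP (358320 nt), an adhesion protein of the nervous system, NKAIN3 (330411 nt), GPM6A (300541 nt), a neuronal membrane glycoprotein, and CADM1 (263850 nt), a cell adhesion molecule. EDA, the TNF-family ligand ectodysplasin, was represented by a model of 2 exons with a sole intron of 340322 nt.

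The 20 longest introns came from 19 genes and 8 of them were first, 8 internal, 3 last and 1 the sole intron of its model. Of the 20, 17 lay inside the coding region and 14 were in 1 model only. All 4 models of CADM1 held its 263850 nt intron. The 3 last introns were in non-coding genes by RefSeq type: MIR924HG (326668 nt), LINC01414 (276336 nt) and XACT (321518 nt), a long non-coding RNA known from the active X chromosome of human pluripotent cells. The intron of 323014 nt listed under TAS2R14_PRR4 belongs to an identifier that joins 2 gene names.

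**Figure D1:**
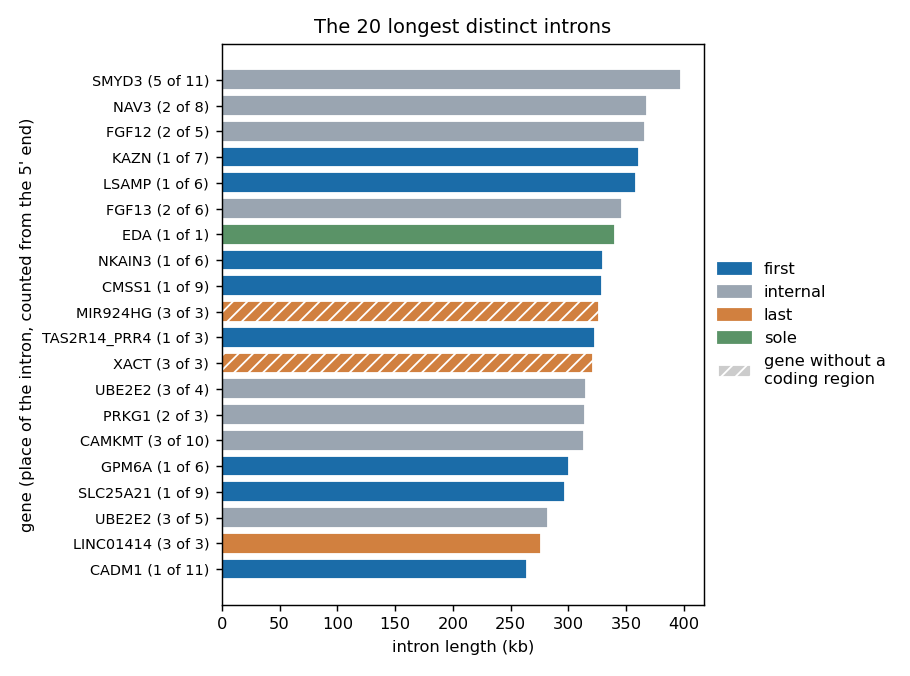
Length in kb of the 20 longest distinct introns, coloured by position in the model; beside each gene name stands the place of the intron, counted from the 5′ end, in the model with most introns. First and internal introns take 8 bars each, and the longest last introns belong to MIR924HG and XACT, which have no deposited coding region.

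Long introns were more often the first of the model than introns in general. Of the 1249, 462 were first in every model that held them (37%, 95% Wilson interval 34.4 to 39.7), against 15.8% of all introns. Internal introns made up 577 (46.2%, against 66.2%) and last introns 142 (11.4%, against 13.6%), and 48 were the sole intron of their model (3.84%, against 1.85%). Another 20 (1.6%, against 2.58%) had different positions in different models. The Wilson intervals cover counting error only, since introns of 1 gene are not independent and this is 1 catalogue. The intron after the first one was also common: in the model with most introns, 262 long introns stood there (21%), against 13.8% of all introns.

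The share of first introns was already high below the threshold, from 10000 nt on. It was 11.2% among introns of up to 1000 nt, 14.8% from there to 10000 nt and 33.8% from there to 50000 nt. Above 50000 nt it was 38.1% up to 100000 nt (n = 902), 33.7% up to 200000 nt (n = 300) and 36.2% beyond (n = 47), with overlapping intervals. When each gene gave only its longest intron, 45.3% of 780 long ones were first, against 37.5% of the longest introns of all genes. The longest intron of a gene was thus often its first one over all genes as well. Among models that start within 1000 nt of the RefSeq start of the gene, 36% of 852 long introns were first, against 15.3% of all.

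**Figure D2:**
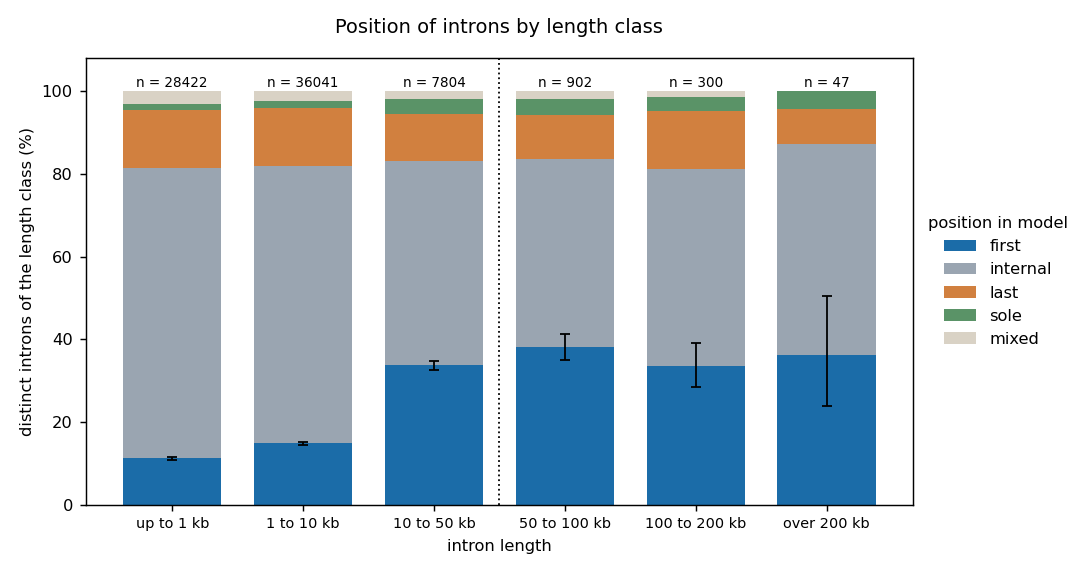
Share of distinct introns (%) in each position of the model by length class, with 95% Wilson intervals on the first introns and the number of introns above each bar; the dotted line marks 50000 nt. The first introns (blue) take 11.2% of the shortest class and between 33.7% and 38.1% of the 4 classes over 10000 nt.

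Relative to the coding region, 789 long introns lay inside it in each model that held them (63.2%, against 78.2% of all introns). Another 249 lay in the 5′ untranslated region (UTR; 19.9%, against 10.3%), 13 in the 3′ UTR (1.04%, against 1.05%) and 141 in models without a coding region (11.3%, against 4.62%). Models that shared the intron disagreed in 57 cases (4.56%, against 5.77%). The 5′ UTR share was 21.8% for introns up to 100000 nt and 17% up to 200000 nt, and 1 of the 47 longer ones (2.13%) lay there. Of the 462 long first introns, 169 lay in the 5′ UTR (36.6%, against 43.7% of all first introns) and 228 inside the coding region (49.4%, against 41.4%). Of the rest, 50 were in models without a coding region (10.8%, against 8.54%) and 14 differed between models (3.03%, against 6.24%). Within coding regions, long introns split codons after the first base (phase 1) in 37.3% of 833 cases, against 30.8% of all introns. Phase 0, between codons, took 42.6% (46.5%) and phase 2 took 20% (22.7%). Of the 13 long introns in a 3′ UTR, 3 were in PVT1, a long non-coding RNA next to MYC that carries a deposited coding region here, and 3 in 1 model of RASGEF1B, an exchange factor of the Ras family (188620, 128642 and 90739 nt). CDK14, a cyclin-dependent kinase, had one of 88956 nt as the last of 14 introns. A single model of TWIST2, a transcription factor of mesoderm, had a sole intron of 61108 nt behind its stop.

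Most long introns rested on 1 model: 906 of 1249 (72.5%) were in 1 model only, against 61.8% of all introns. Their splice sites were more often joined to another partner as well. The 5′ splice site also belonged to another intron in 350 cases (28%, against 14.5%) and the 3′ splice site in 301 (24.1%, against 14.8%). Both sites belonged to no other intron in 812 cases (65%, against 76.9%).

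A model with a long intron spanned a median of 139824 nt of genome, against 15821 nt over all models, while its mature length was nearly the same, 1652 against 1537 nt. Its long introns took a median of 72.4% of that span. No model in the catalogue had more than 5877 nt of exon, so long introns of genes that were read only as longer messages are not covered here. The number of introns was also similar, 6 against 5 in the median model. EXOC4, a subunit of the exocyst that tethers secretory vesicles, had the largest span: 1 of its 2 models ran over 812686 nt and held 6 long introns.

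Of the 781 genes, 501 had 1 distinct long intron, and 190 (24.3%) had at least 2 that did not overlap. In 623 genes (79.8%) every model held a long intron. FARS2, the mitochondrial phenylalanyl-tRNA synthetase, had the most, 8 distinct long introns of which 4 did not overlap, and all 5 of its models held 4. ADK, adenosine kinase, had 7 (5 not overlapping) in 4 models, and CDKAL1, an enzyme that modifies a lysine tRNA, had 7 (6 not overlapping). SMYD3, EXOC4 and CSTPP1 had 6 each, of which 4, 6 and 3 did not overlap. Among the genes with 5, the first by symbol were ATG10, a conjugating enzyme of autophagy, the unnamed gene ENSG00000275778, FOXN3, a forkhead repressor, and GULP1, an adaptor in engulfment. FOXN3 held all 5 in 1 model, while those of GULP1, spread over 9 models, took 2 places that do not overlap.

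The functions of the genes were described with 15 lists of gene families, which together hold 260 of the 781 genes (33.3%). The neural, adhesion, axon and channel lists had the highest shares. In the adhesion and synapse list, 13 of 36 genes with a model had a long intron (36.1%, interval 22.5 to 52.4), against the 8.26% of all genes. The 3 longest were in LSAMP, CADM1 and TENM3 (179784 nt), a teneurin, and the cadherins CDH1, CDH2, CDH8 and CDH11 were also among the 13. Of the axon guidance and growth cone list, 10 of 28 had one (35.7%), led by NAV3, MAP2 (155759 nt), a dendritic microtubule protein, and SEMA6A (69202 nt), a transmembrane semaphorin. Both DCX (67836 nt), doublecortin, and MAPT (67634 nt), tau, belonged here. Of the channel and neurotransmitter receptor list, 12 of 38 had one (31.6%). Its longest were KCNIP1 (214124 nt), which binds potassium channels, and KCNC2 (155979 nt), a potassium channel.

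Of the neural progenitor and neuron genes, 12 of 33 had a long intron (36.4%, interval 22.2 to 53.4), whereas 2 of 22 pluripotency genes did (9.09%, interval 2.53 to 27.8). The neural genes included RBFOX1 (227110 nt), a neuronal splicing factor, DACH1 (184011 nt), a transcription factor with 4 long introns, and CDH2 (133763 nt), N-cadherin. RBFOX1 was represented by 1 model of 3 exons and 202 codons. The pluripotency genes were LIN28B (68011 nt), which blocks let-7 maturation, and TRIM71 (54885 nt), which represses messages in stem cells. The core factors POU5F1 and NANOG had longest introns of 4168 and 3184 nt, and the progenitor factor PAX6 one of 6793 nt. The neural list thus held genes with very long and with very short introns: the median of the longest intron was 6793 nt, below the 7754 nt of all genes. The adhesion, axon, channel and neural lists overlap, and together they held 42 of 128 genes with a long intron (32.8%), against 7.92% of the 9332 other genes. These shares rested mostly on introns in 1 model. With introns in at least 2 models, 3 of 36 adhesion genes (8.33%) and 1 of 28 axon genes (3.57%) had a long one. Of the channel genes 2 of 38 did (5.26%) and of the neural genes 2 of 33 (6.06%). Over all genes the share was 2.46%, and among the kinases and phosphatases 6.61%. A gene with 1 model cannot pass this rule, and 377 of the 781 genes with a long intron (48.3%) had at least 2 models. Many of the listed genes, such as LSAMP, NAV3 and KCNC2, had 1 model, so the drop cannot tell weak support from few models.

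Signalling lists came next. The growth factor and morphogen families had 10 of 49 (20.4%), led by FGF12, FGF13 and GPC3 (198873 nt), a glypican at the cell surface with 4 long introns. The list follows family symbols and so holds members that are not secreted factors, such as the intracellular FGF12 and FGF13 and the glypican. The kinases and phosphatases had 38 of 227 (16.7%, interval 12.4 to 22.1), led by PRKG1, ROR1 (234796 nt), a receptor of WNT5A, and CAMK1D (203314 nt), a calcium-dependent kinase. Small GTPase regulators had 8 of 49 (16.3%), with ELMO1 (118281 nt), DENND1A (99672 nt) and RABGAP1L (82950 nt) at the top. Cytoskeleton and motor genes had 16 of 133 (12%, interval 7.54 to 18.6, which covers the share of all genes). Of their 19 long introns 14 were first (73.7%), against 37% of all long introns. This was the highest such share of the 15 lists, and the others ran from 23.5% (chromatin regulators) to 61.5% (axon list). The cytoskeleton list included MAP7 (128542 nt) and EPB41L2 (106655 nt).

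The intervals of the lists that follow also covered the 8.26% of all genes. Vesicle trafficking genes had 31 of 275 (11.3%), led by SCFD2 (224462 nt), STXBP6 (192720 nt) and EXOC4 (187183 nt). Ubiquitin pathway genes had 22 of 198 (11.1%), led by UBE2E2 (315241 nt), KLHL13 (170932 nt) and MARCHF3 (112122 nt). The DNA-binding transcription factors had 40 of 448 (8.93%), among them ZNF385B (224533 nt) and PBX3 (181031 nt). Metabolic enzymes and transporters had 33 of 404 (8.17%), led by SLC25A21 and the sialyltransferases ST6GALNAC3 (238920 nt) and ST6GALNAC5 (181515 nt). RNA-binding proteins had 17 of 267 (6.37%) and chromatin regulators 10 of 158 (6.33%). The longest in these 2 lists were RBFOX1, KHDRBS2 (161870 nt) and MSI2 (139186 nt), and MLLT3 (163867 nt), HDAC8 (110165 nt) and ATXN7L1 (87103 nt).

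**Figure D3:**
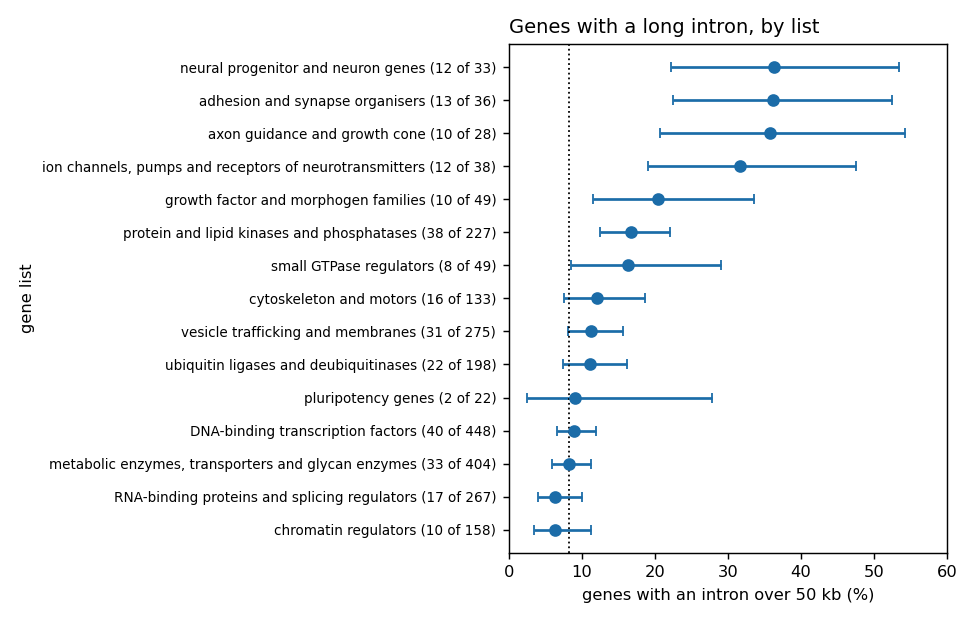
Share of genes with an intron over 50000 nt (%, points) in each of 15 gene lists with 95% Wilson intervals; the dotted line is the 8.26% of all genes and the brackets give the counts. The neural, adhesion, axon and channel lists lie between 31.6% and 36.4%, and the chromatin and RNA-binding lists lie lowest, with intervals that cover the line.

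The share of genes with a long intron was similar in coding and non-coding genes. A coding region was deposited for 705 of the 781 genes (90.3%), against 90.7% of all genes, and 76 had none (9.73%, against 9.31%). By RefSeq type, 54 of 555 genes for long non-coding RNA (lncRNA) had a long intron (9.73%, interval 7.53 to 12.5) and 693 of 8501 protein-coding genes did (8.15%, interval 7.59 to 8.75). Of the 781 genes, 6.91% were lncRNA genes (5.87% of all genes) and 88.7% protein-coding (89.9% of all). The 2 definitions differed: 18 of the 54 lncRNA genes carried a deposited coding region, and 21 RefSeq protein-coding genes with a long intron carried none, among them CHD9, a chromatin remodeller, DAAM1, a formin, and the G-protein subunits GNG2, GNG7 and GNG12. Counted by intron rather than gene, 85 of 1702 introns of lncRNA genes were long (4.99%), against 1.59% of the introns of protein-coding genes. A lncRNA model had a median of 2 introns and a protein-coding one 6.

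In protein-coding genes 38.3% of 1121 long introns were first, against 15.4% of all their introns. In lncRNA genes 21 of 85 were first (24.7%, interval 16.8 to 34.8), against 26% of all lncRNA introns. Last introns made up 31.8% of the long ones in lncRNA genes (27.4% of all) and 8.74% in protein-coding genes (13.1% of all). Sole introns made up 15.3% of the long ones in lncRNA genes (18.7% of all) and 2.59% in protein-coding genes (1.22% of all). Internal introns were 25.9% of the long ones in lncRNA genes (21% of all) and 48.9% in protein-coding genes (67.8% of all), and the position differed between models in 2.35% (6.87% of all) and 1.52% (2.45% of all). The difference between the gene types was not tested. The longest introns without a coding region were those of MIR924HG and XACT, followed by LINC01122 (228185 nt), HULC (225547 nt), an RNA named from liver cancer, and LINC02428 (197305 nt). TMEM161B-DT had 4 distinct long introns, the longest of 165687 nt, but these overlapped in 1 place and only 5 of its 14 models held one. The intron of 207890 nt in ENSG00000257060 also belonged to these 10.

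A larger share of long introns than of all introns skipped a cassette exon. An exon was counted as a cassette if another model of the gene spliced straight from the exon before it to the exon after it. There were 3571 in the catalogue, and 182 of them (5.1%) were skipped by a long intron, in 147 genes. Seen from the introns, 179 of 1249 long introns skipped at least 1 (14.3%), against 4.7% of all. An intron that skips an exon is longer for that reason, and the length decided membership. Of the 182 exons, 123 (67.6%) left a part of over 50000 nt on at least 1 side when included, and 8 (4.4%) left both parts that long. With any of the other exons included, no part passed the rule. The share of long introns without these is not given here. A longer intron also has more room for an exon, which was not corrected for. Within genes with at least 2 models, where skipping can be seen at all, 25.2% of 709 long introns skipped a cassette exon, against 8% of all introns. In lncRNA genes 23 of 85 long introns skipped one (27.1%, against 10.3% of their introns) and in protein-coding genes 148 of 1121 (13.2%, against 4.51%).

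The exons themselves were ordinary in size. Their median length was 116 nt, against 110 nt for all cassette exons, with a range of 15 to 1580 nt. Of the 182, 65 (35.7%, interval 29.1 to 42.9) were divisible by 3, against 40.4% of all cassette exons. Inside coding regions the shares were 43.7% of 87 and 45.3% of 2019. Placement differed more: 87 of 182 were coding (47.8%, against 56.5%), 29 lay in a 5′ UTR (15.9%, against 18.2%) and 34 in models without a coding region (18.7%, against 9.83%). The skipping intron was first for 79 of the 182 (43.4%), internal for 62 (34.1%) and last for 22 (12.1%). It was the sole intron for 17 (9.34%), and its position differed between models for 2 (1.1%). Of the long introns themselves, 37% were first, 46.2% internal, 11.4% last and 3.84% sole, and 1.6% differed between models. The shorter part took a median of 20.3% of the intron, against 23.5% for all cassette exons. In 49 of 182 (26.9%) the longer part took at least 90%. Neither these positions nor the share with such a part is given here for all cassette exons. A model with the exon whose coding region ended more than 50 nt before the last junction, a feature linked to nonsense-mediated decay, was found for 4 of the 182 (2.2%), against 6.69% of all cassette exons. Exons in models without a coding region cannot count here, and their shares differed (18.7% against 9.83%), so the sets are unlike. Among the 4 were exons of PVT1, where models that skipped them ended early as well. Early stops in models that skip the exon do not enter these shares.

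**Figure D4:**
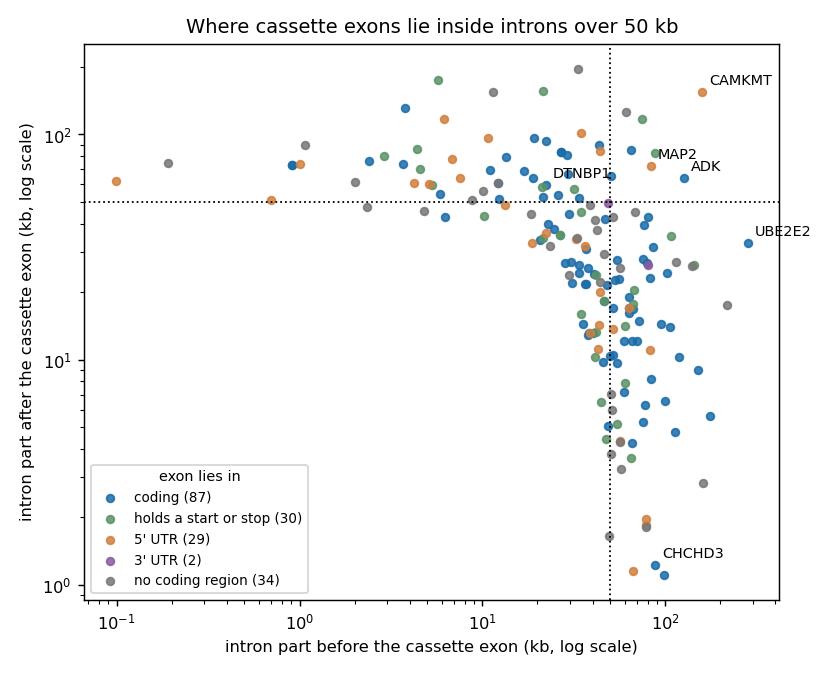
Length of the intron before and after each of the 182 cassette exons inside long introns (kb, both axes logarithmic), coloured by where the exon lies in the models that hold it; dotted lines mark 50 kb. The 8 exons at the upper right, among them those of CAMKMT, ADK and MAP2, leave both parts over 50000 nt.

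The longest intron with a cassette exon was in UBE2E2, a ubiquitin-conjugating enzyme. Its 133 nt exon on chromosome 3 at 23499608 to 23499740 was in 2 of 3 models and was skipped by a 315241 nt intron in the third. With the exon the parts measured 282295 and 32813 nt. Both models with the exon had 202 codons and the model without it had 93, with the stop more than 50 nt before the last junction.

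In CAMKMT, the calmodulin lysine methyltransferase, a 174 nt exon split a 313977 nt intron into parts of 159249 and 154554 nt. The exon lay in the 5′ UTR of its model, which had 168 codons, and models without it reached 324. ADK, adenosine kinase, had a coding exon of 171 nt in 3 of 4 models, between parts of 126676 and 63855 nt. Models with it reached 363 codons, and the model without it had 306, a difference equal to the length of the exon. STXBP6, which binds SNARE proteins, had a 186 nt exon in its 192720 nt first intron. The coding region reached 211 codons with it and 131 without. The other exons among the 10 longest such introns were in LINC01414 (72 nt), LINC01122 (68 nt), ENSG00000275778 (67 nt), ZCCHC7 (631 nt), ST6GALNAC5 (410 nt) and PPP2R2B (85 nt), a regulatory subunit of protein phosphatase 2A. Of these 10 exons 4 were divisible by 3, as in 40.4% of all.

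Microexons, here at most 30 nt, were 2 of the 182 (1.1%, against 1.51% of all cassette exons). CHCHD3, a protein of the mitochondrial cristae, had a 15 nt exon 88180 nt behind the 5′ splice site and 1228 nt before the 3′ splice site of an 89423 nt intron. The coding region had 233 codons with it and 228 without, the change that 15 nt in frame gives. DTNBP1, dysbindin, had a 23 nt exon in 4 models, which reached 352 codons. The model that skipped it with an 81871 nt intron had 169.

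Further exons were chosen after their values were seen, because the genes are studied in neural cells. MAP2 had a 50 nt exon of the 5′ UTR in its 155759 nt first intron, which left parts of 83315 and 72394 nt. Of its 6 models 3 held the exon and 1 skipped it, and the coding regions of these models also differed further along. NUMB, an inhibitor of Notch signalling, had an 85 nt exon of the 5′ UTR in a 54170 nt intron. BCL11A, a zinc finger repressor, had a 102 nt coding exon in an 83546 nt intron, and its models had 192 codons with it and 158 without. RBPJ, the DNA-binding factor of the Notch pathway, had a 183 nt exon in a 65537 nt first intron that held the start of a coding region of 487 codons in both models with it. The models without it had 466 and 488 codons.

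**Figure D5:**
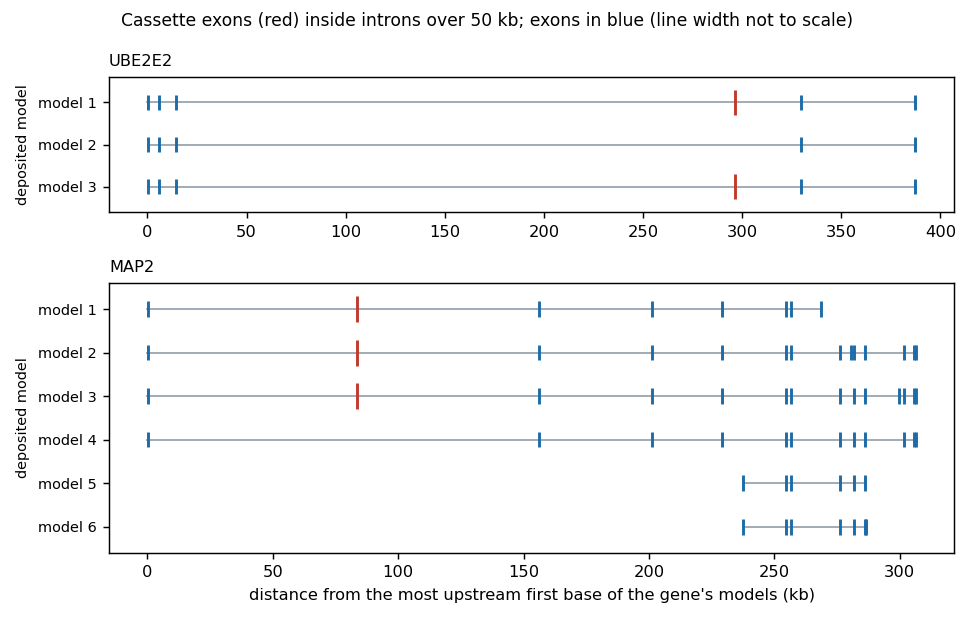
All deposited models of UBE2E2 and MAP2, drawn in the direction of transcription in kb from the most upstream first base; blue marks are exons and red marks the cassette exon inside the long intron. The red exon is absent from model 2 of UBE2E2 and model 4 of MAP2, each of which joins the exons on either side across the whole gap, and MAP2 models 5 and 6 begin behind it.

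Some models of the same gene began or ended inside a long intron. The first base of another model lay in 46 long introns (3.68%, against 1.69% of all), as in the 366642 nt intron of FGF12 and the 125897 nt first intron of RBMS1, an RNA-binding protein, which held 3. The last base of another model lay in 116 (9.29%, against 2.46%). The 313977 nt intron of CAMKMT held the end of 1 shorter model, and the 139186 nt intron of MSI2, Musashi RNA-binding protein 2, held the end of 1. TMEM161B-DT, with 14 models, had 9 model ends inside its 165687 nt intron. The shorter 84505 nt intron of NUTM2A-AS1, a gene with 12 models, held 10. Counting any whole exon of another model, 307 long introns held one (24.6%, against 7.42%). A longer intron offers more room for each of these, which was not corrected for.

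A whole model of another gene on the opposite strand lay inside 5 long introns (0.4%, against 0.0381% of all). Antisense RNAs of the host itself were 2 of the nested genes, FGF13-AS1 in FGF13 (148583 nt) and FOXN3-AS1 in FOXN3 (74078 nt). The last intron of PDXDC1 (108822 nt) spanned NTAN1 and RRN3, that of DLGAP4-AS1 (63166 nt) spanned MYL9, a myosin light chain, and that of TSTD3 (53089 nt) spanned CCNC, cyclin C. None of the 1249 held a whole model of another gene on the same strand, against 3 of all introns (0.00408%).

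By chromosome, the share of introns over 50000 nt was highest on chromosome 8 (88 of 2578, 3.41%) and lowest on chromosome 19 (12 of 5224, 0.23%). The catalogue also placed 64 introns on chromosome Y, of which 2 were long (3.12%), and this placement was not checked.

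Promoters were compared by letters only. RefSeq promoters of 300 bases (GRCh38.p14, 250 before and 50 after the start) were matched for 319 genes with a long first intron and 7487 genes in all. The median number of CG dinucleotides was 29 with a long first intron and 26 in all genes. The letters GGGCGG on either strand, the core of a GC box, were in 71.5% and 71.1%, and TATAAA on either strand was in 5.33% and 5.06%. Of all 27305 RefSeq promoters of this length, 44.6% held the first and 12% the other. A match is a stretch of letters and not a shown binding site.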

How the data were processed

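The values used were the first and last positions (nt, other unit: coordinates) of transcripts, exons and coding regions in the authors' deposited set of long-read transcript models, which names PacBio as source on each line and holds no count or abundance. The libraries that entered it, the genome build, the annotation and the tools behind models and coding regions were not given in the sources used here. STAR 2.7.8a and Salmon 1.9.0 are listed in the submitters' processing notes, which tie neither to this catalogue. Coordinates are printed as deposited, counted from 1. Of 7487 genes with a RefSeq promoter (GRCh38.p14) of the same symbol, chromosome and strand, 6820 (91.1%) had a model start within 1000 nt of the RefSeq start, so RefSeq miRNA positions were placed on the same coordinates.

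Introns, positions, cassette exons and their counts were computed with Python 3.11.15 and numpy 2.4.6; splice sites had to match exactly. The scripts were tested on simulated data, in which all 100 planted long introns, with their positions, and all 50 planted cassette exons were found. Of 9460 gene identifiers, 9181 matched a RefSeq gene by symbol or 1 synonym. Shares have 95% Wilson intervals, which cover counting error; no p-value was computed, because no library has a value and introns are not replicates. The members, gene lists and named genes were chosen with earlier results of these data known. Lists are patterns of symbols, from which 136 entries of other function, pseudogenes, lncRNA or joined identifiers were removed after the symbols were seen; some genes are on more than 1 list. Named genes are the 20 longest introns, the 10 genes with most long introns, the 10 longest introns without a coding region, cassette exons of at most 30 nt or in the 10 longest introns, the top 3 of each list and the introns nearest the threshold. Others were chosen after their values were seen, and some genes that the rule names are not reported here. Alternatives were another threshold, introns in 2 models, other position and coding rules and stricter cassette rules.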

Additional observations from a re-analysis of the deposited data

How the results depend on the processing

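The number of long introns moved with the threshold by construction: 347 over 100000 nt and 4306 over 20000 nt, and 343 when an intron had to be in at least 2 models. Their share of first introns was 34% over 100000 nt, 28.3% in at least 2 models (11.7% of all such introns) and, in an alternative added after seeing the data, 45.3% with the longest intron of each gene (37.5% for all genes). The share of genes without a coding region was 6.01% of 233 with introns in at least 2 models. The 9.31% of all genes includes genes with 1 model, which cannot have such an intron, so these 2 sets are unlike. The share of long introns that skip a cassette exon was 10.8% for introns in at least 2 models (3.11% of all), 1.68% when inclusion and skipping each needed 2 models (0.641% of all), 24.6% when any whole exon of another model counted (7.42%) and 25.2% in genes with at least 2 models (8%; added after seeing the data). In each of these settings the long introns lay on the same side of the value for all introns. For the cassette shares this adds no support. Each setting kept introns that passed the length rule by skipping an exon, and none corrected for length. The genes without a coding region were the exception, with a share that changed sides. Their share lay above that of all genes in the report and below it over 100000 nt (8.47%) and over 20000 nt (8.42%). In at least 2 models it was also lower, but beside the unlike set named above. The share of most gene lists moved with the threshold. Of 15 lists, 12 lay above the share of all genes in the report and 9 over 100000 nt. Over 20000 nt 12 did so, and 14 with introns in at least 2 models. In the last setting the axon, channel and neural lists fell below the kinases (3.57%, 5.26% and 6.06%, against 6.61%). No gene with 1 model can pass that setting. Removing the 43 identifiers that join 2 names, or other chromosomes than 1 to 22 and X, left 1245 and 1247 long introns. Leaving out introns that reach past the RefSeq span of the gene was not run, because the build is not named. No paired analysis was possible because the catalogue has no value per library, and leaving out a replicate was not possible for the same reason. The unknown depth limits how many models, and so how many skipped exons, each gene shows.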
